A study of Rattus norvegicus with 36 samples.

Results

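Among 36 bulk RNA libraries of cultured rat alveolar macrophages, 15 held transcripts of Col3a1, a fibrillar collagen chain that fibroblasts make and macrophages normally do not. These 15 libraries were set against the other 21. Membership was chosen by one measured value alone, Col3a1 above 10 CPM (the counts-per-million unit, taken on the column total of each library). The difference in Col3a1 is therefore the choice itself and is given without a test. The cells came from male F344/HanZtmRj rats, were cultured for 5 days and met particles for 4 days. They fall into 12 groups of 3 libraries, a control, a non-overload and an overload loading for each of the carbon black Printex90 and the titanium dioxides G1-1, G3-1 and Bayertitan. The labels call all 36 samples primary alveolar macrophages, call the libraries biological replicates and name no animals, so p-values measure the spread between libraries only. The age of the rats and the particle doses are not given in the sources used here.

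Lung fibroblasts lie in the alveolar wall, where they lay down collagen, elastic fibres and proteoglycans and respond to platelet-derived growth factors through the receptors Pdgfra and Pdgfrb. Alveolar macrophages sit on the air side of that wall and are usually collected by washing the air spaces. Cells of the wall and of the airway lining can enter such a wash, and fibroblasts divide on culture plastic. In bulk RNA, fewer cells of a type and less RNA per cell cannot be told apart.

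The split cut across particles and loadings. Of the 15 libraries with Col3a1, 4 were overload, 6 non-overload and 5 control libraries, and 5 belonged to G3-1, 4 to Bayertitan, 3 to G1-1 and 3 to Printex90. In 11 of the 12 groups both kinds of library stood side by side, and only the Printex90 overload group had none with Col3a1. Column totals ran from 22270000 to 30930000 in the libraries with Col3a1, against 24010000 to 37130000 in those without.

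Col3a1 lay between 13.1 and 650.8 CPM in the libraries with it, with a median of 194.9 CPM. All 21 other libraries together held 3 counts, never more than 1 in a library. The member nearest to the limit from above was Printex90 control replicate 2 at 13.1 CPM, and the nearest from below was Bayertitan control replicate 1 at 0.0362 CPM. No library lay in the wide gap between these values. The level was highest in Bayertitan non-overload replicate 2, next at 453.2 CPM in Printex90 non-overload replicate 1 and at 393.1 CPM in G3-1 overload replicate 2. It was at 30.1 CPM or less in both Printex90 control libraries and in the G1-1 control and non-overload libraries of the 15, and at 132.5 CPM or more in the other 11.

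The label of a fibroblast signal was checked on further markers. Col1a1, the main chain of type I collagen, was at 13.4, 597 and 2342 CPM (lowest, median and highest library) in the libraries with Col3a1, against 0.375, 1.03 and 1.68 CPM in those without. Pdgfra was at 1.33, 18.7 and 104 CPM with Col3a1, against 0.117, 0.358 and 0.965 CPM without. Pdgfrb was at 4.34, 74.8 and 344 CPM with Col3a1, against 0.0269, 0.175 and 0.362 CPM without. The libraries of the 2 kinds did not overlap for any of these genes, and a split by Col1a1 picks the same 15 libraries. Not every fibroblast marker separated the libraries. Decorin (Dcn), a collagen-binding proteoglycan, was at 16.1, 28.9 and 45.2 CPM with Col3a1, against 14.3, 22.04 and 32.6 CPM without, so it was present on both sides. Thy1, a surface protein of many fibroblasts, was at 0.6254, 1.21 and 3.75 CPM with Col3a1, against 0.375, 0.737 and 1.62 CPM without, and did not pass the test. Of the 8 fibroblast markers set down for this check, 7 were measured and 6 of these were called higher. Col3a1, whose call the split fixed in advance, is among the 6. So is lumican (Lum), at 0 counts in all 21 libraries without Col3a1, which was tested through the other side alone.

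**Figure D1:**
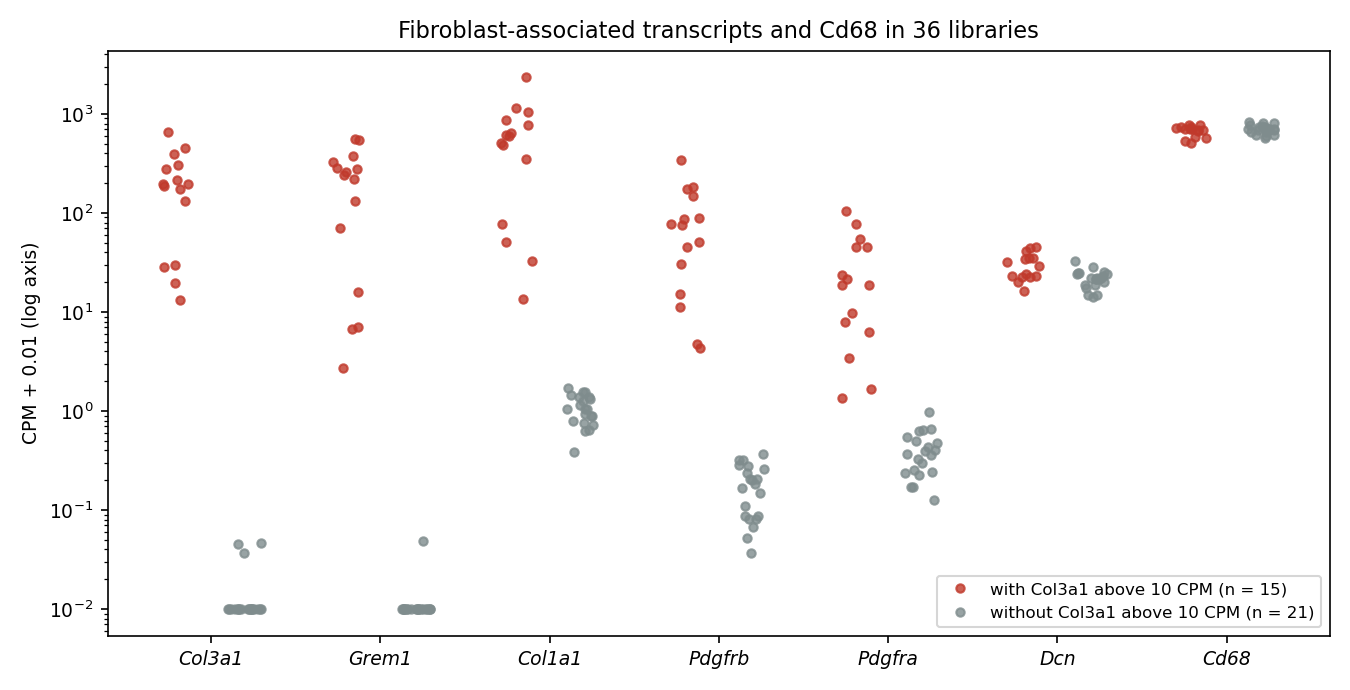
CPM + 0.01 (log axis) of 6 fibroblast-associated transcripts and of the macrophage gene Cd68 in each of 36 libraries, 15 with Col3a1 above 10 CPM (left of each pair) and 21 without it (right). Col3a1, Grem1, Col1a1, Pdgfrb and Pdgfra separate without overlap, while Dcn and Cd68 overlap between both kinds of library.

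Across the transcriptome, 14498 of 23487 listed genes were tested with edgeR's quasi-likelihood test, with the 12 groups in the model and an adjusted p under 0.05 as the call. Of these, 939 were called higher with Col3a1 (6.48%) and 253 lower (1.75%). An unadjusted p under 0.05 by edgeR was reached by 3129 of the 14498, both directions together. The unadjusted counts of single lists below are to be read against that share. By their medians the rises were larger than the falls. The median log2 difference was 0.85 among the genes called higher and -0.12 among those called lower, against -0.01 over all genes tested. Among the called genes 422 were at least 2-fold higher and 1 was at least 2-fold lower. Of the 939 genes called higher, 168 were less than 1.2-fold higher. The count of falls rested on single libraries. It was 120 without G3-1 overload replicate 1, 150 without Printex90 non-overload replicate 1, 151 without Bayertitan overload replicate 1 and 161 without G3-1 control replicate 3. It was 402 without G1-1 control replicate 1 and 439 without G3-1 non-overload replicate 2. Of the genes called higher, 281 stayed at or below 1 CPM in each of the 21 libraries without Col3a1. CPM values of the 15 and the 21 libraries did not overlap for 46 genes, all of them higher with Col3a1 (0.317% of those tested). Among the genes tested, 181 reached 10 counts in libraries with Col3a1 alone, and these passed the filter on low counts through the side on which they are high.

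Genes are described by 26 lists, 332 of whose 411 entries were tested. The lists of matrix, fibroblast, growth factor and stromal cytokine genes measure the cells that the split was made on, so their counts and medians are given as a description and no p is given for them.

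Fibrillar collagens form the tensile fibres of connective tissue. Of 7 tested, 6 were called higher, with a median log2 difference of 3.53. Besides type I and III chains they included the type V chains that start fibre assembly. Col5a2 was at 46.4, 258 and 512 CPM with Col3a1, against 21.9, 37.0 and 49.4 CPM without, so the lowest library with Col3a1 overlapped the others and a base level was present everywhere. Col5a3 was the exception, at 43.7, 54.6 and 74.0 CPM with Col3a1, against 40.7, 48.3 and 63.9 CPM without. A further entry, NEWGENE_621351, to which the tables used here give no gene name, was at 5.59, 405 and 1500 CPM with Col3a1, against a highest value of 0.275 CPM without.

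Other collagens were divided. Of 17 tested, 9 were called higher, and these held the microfibril-forming type VI chains and several collagens that decorate fibres. Col6a2 was at 1.06, 32.6 and 111 CPM with Col3a1, against 0, 0.0352 and 0.193 CPM without. Col12a1, which binds to collagen fibres, was at 11.5, 77.9 and 409 CPM with Col3a1, against 1.87, 7.65 and 15.2 CPM without. The basement membrane chains Col4a1 and Col4a2 did not pass. Col4a1 was at 92.0, 126 and 266 CPM with Col3a1, against 71.7, 140 and 184 CPM without, and its log2 difference was -0.01 (SE 0.11).

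The machinery that folds, modifies and crosslinks collagen was called higher for 17 of 22 genes, with a smaller median log2 difference of 0.46. Serpinh1, the collagen chaperone HSP47, was at 96.6, 208 and 410 CPM with Col3a1, against 42.8, 89.3 and 124 CPM without (log2 difference 1.09, SE 0.16). Plod2, a lysyl hydroxylase, had a larger log2 difference of 2.11 (SE 0.25). The crosslinking enzyme Lox had one of 0.51 (SE 0.12). These genes overlapped between both kinds of library and had a clear level without Col3a1.

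Elastic fibre genes were called higher for 11 of 15 and matrix proteoglycans for 10 of 11. Fibrillin 1 (Fbn1), which forms the microfibril scaffold, was at 1.06, 32.0 and 97.2 CPM with Col3a1, against 0, 0.176 and 0.398 CPM without. Ltbp2, a fibrillin-binding protein, was at 23.4, 147 and 541 CPM with Col3a1, against 9.74, 16.2 and 19.4 CPM without. Neither gene overlapped. Biglycan (Bgn) was at 34.2, 186 and 679 CPM with Col3a1, against 31.7, 38.6 and 50.7 CPM without, and overlapped at the low end. Versican (Vcan), a large hyaluronan-binding proteoglycan, had a log2 difference of 2.30 (SE 0.25).

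Matrix glycoproteins were called higher for 12 of 19. Tenascin C (Tnc), an adhesion-modulating protein of remodelling tissue, was at 40.6, 262 and 533 CPM with Col3a1, against 14.99, 26.7 and 46.3 CPM without. Fibronectin (Fn1), which was abundant in every library, was not among them. It was at 3433, 4060 and 7068 CPM with Col3a1, against 2046, 4317 and 5681 CPM without (log2 difference 0.03, SE 0.08), and with the epithelial mean in the model its log2 difference was 0.17 and called. The levels of both kinds of library overlapped widely.

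Contractile genes followed least of all the connective tissue lists, with 2 of 14 called higher and a median log2 difference of 0.06. Acta2, the smooth muscle actin of myofibroblasts, was at 9.73, 54.8 and 88.1 CPM with Col3a1, against 10.7, 23.8 and 59.8 CPM without (log2 difference 0.55, SE 0.15). This call was lost when G1-1 control replicate 1, G1-1 overload replicate 1, G3-1 non-overload replicate 2 or G3-1 overload replicate 1 was left out. It was also lost with the replicate number as a block. Tagln, a smooth muscle actin-binding protein, was at 407, 518 and 825 CPM with Col3a1, against 390, 537 and 701 CPM without, and its log2 difference was 0.003.

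**Figure D2:**
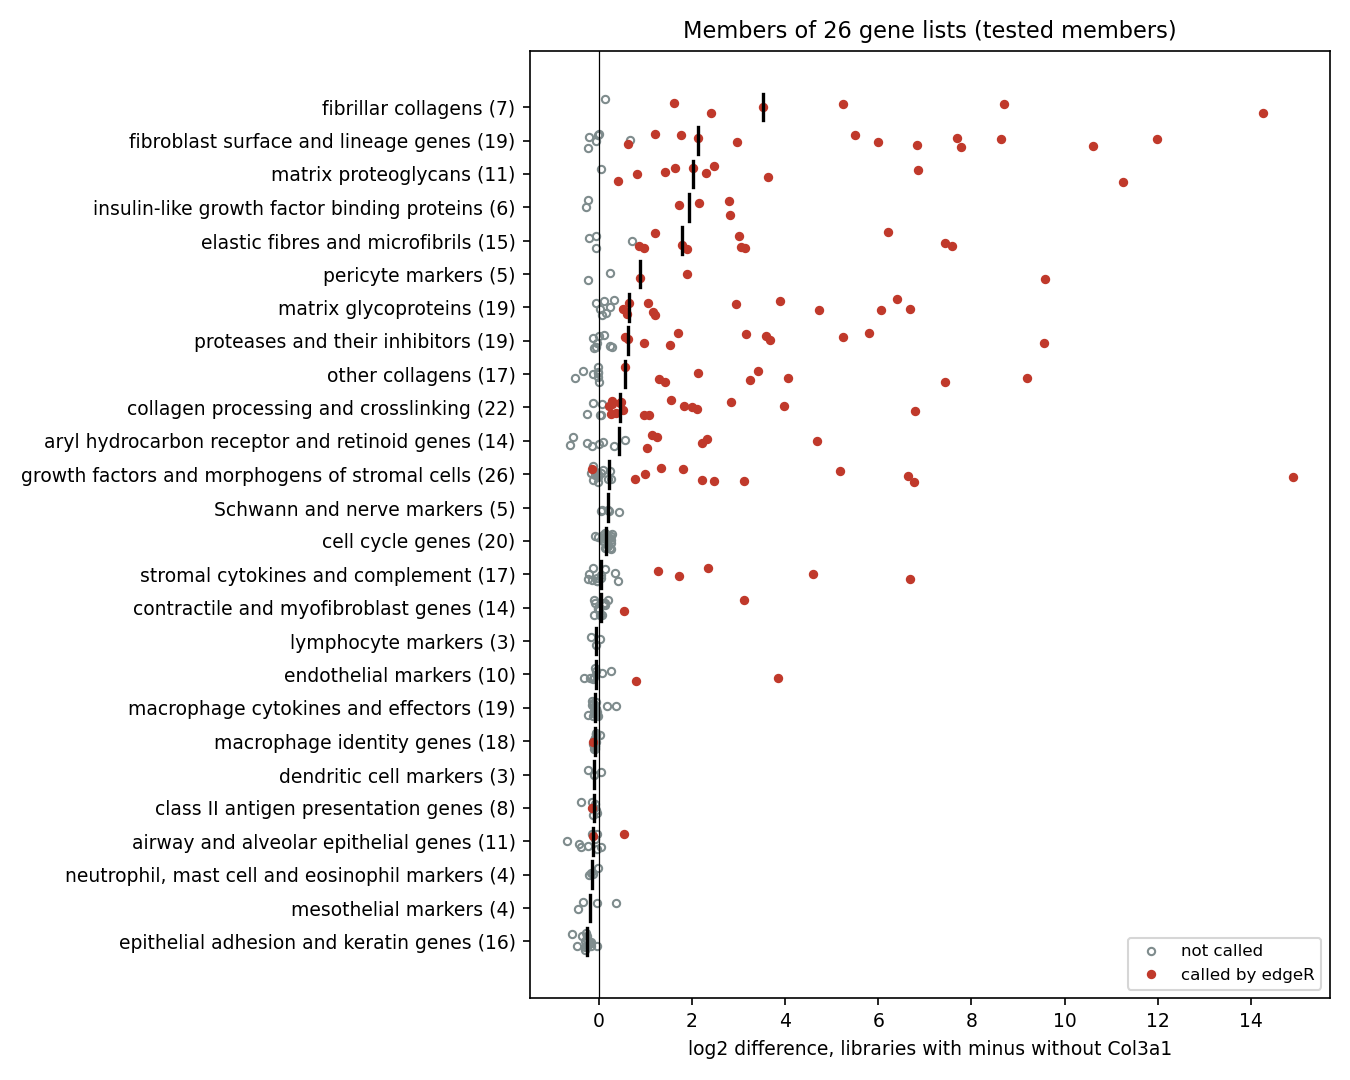
Log2 difference (libraries with minus without Col3a1, horizontal axis) of each tested member of 26 gene lists, ordered by median (black bar), with the number tested in brackets and filled points for genes called by edgeR. Points far to the right are genes near 0 counts without Col3a1, whose fitted values depend on the prior count. Fibrillar collagens lead at a median of 3.53, and epithelial genes are last at -0.25.

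Fibroblast surface and lineage genes were called higher for 13 of 19. The transcription factors among them are known from lung mesenchyme. Twist2 held 6153 counts over the libraries with Col3a1, against 2 counts over those without, which is 4475-fold (95% interval of the counts, 1238 to 36960). Tbx4, a limb and lung mesenchyme factor in mice, was at 0.343, 4.27 and 21.96 CPM with Col3a1, against a highest value of 0.162 CPM without. Foxf1, a mesenchymal factor of the developing lung, was at 0.267, 5.22 and 17.1 CPM with Col3a1, against a highest value of 0.108 CPM without. Tcf21, a marker of lipid-storing lung fibroblasts in mice, was too low to be tested, with 8 counts over all libraries with Col3a1 and 0 over those without. Pi16, a marker of adventitial fibroblasts in other tissues, was at 51.9, 58.9 and 74.1 CPM with Col3a1, against 51.4, 61.1 and 75.3 CPM without. Intervals here cover counting error only.

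Growth factors and their antagonists were called higher for 11 of 26 and lower for 1. Grem1, an antagonist of bone morphogenetic proteins, was at 2.74, 241 and 564 CPM with Col3a1, and 20 of the 21 libraries without Col3a1 held 0 counts. Over all libraries it had 91641 counts with Col3a1, against 1 count without, which is 133300-fold (95% interval of the counts, 23920 to 5265000). Its promoter is shown because the gene held a single count in all libraries without Col3a1. The 100 bases before its start (RefSeq, GRCr8, chr3:120978320-120978419, minus strand) hold 1 CCAAT box, in capitals, 82 bases before the start.
Grem1: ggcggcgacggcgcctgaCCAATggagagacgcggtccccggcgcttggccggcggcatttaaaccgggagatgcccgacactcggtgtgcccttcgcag
CCAAT, read on both strands in the 250 bases before the start, was present in 34.3% of 27457 promoters and in 35.4% of the 10445 promoters of tested genes. It was present in 30.2% of 189 promoters of the 281 genes that were higher and at most 1 CPM without Col3a1.

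Other paracrine factors were lower in level. Fgf10, a growth factor that lung mesenchyme sends to the epithelium, was at 0.0762, 1.57 and 12.9 CPM with Col3a1, against a highest value of 0.188 CPM without. Fgf7, also known as keratinocyte growth factor, was at 0.0381, 2.93 and 12.9 CPM with Col3a1, against a highest value of 0.233 CPM without. Wnt5a, a non-canonical Wnt ligand, was at 6.98, 14.6 and 34.9 CPM with Col3a1, against 3.33, 5.98 and 8.95 CPM without. Of the insulin-like growth factor binding proteins, 4 of 6 were called higher, led by Igfbp4 with a log2 difference of 2.80 (SE 0.31). Igf1, which macrophages also make, was lower. It was at 298, 329 and 441 CPM with Col3a1, against 318, 371 and 482 CPM without (log2 difference -0.15, SE 0.03).

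Proteases and their inhibitors were called higher for 11 of 19. Mmp2, a gelatinase of stromal cells, was at 91.6, 269 and 751 CPM with Col3a1, against 62.0, 89.95 and 112 CPM without. Serpine2, a protease inhibitor of mesenchymal cells, was at 0.899, 33.9 and 78.9 CPM with Col3a1, against 0.193, 0.469 and 0.790 CPM without, with no overlap. Ctsk and Timp2, which were abundant on both sides, did not pass, with log2 differences of -0.10 (SE 0.05) and -0.05 (SE 0.02).

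Stromal cytokine and complement genes were called higher for 5 of 17. C1r, a protease of the first complement component, was at 12.5, 31.1 and 89.5 CPM with Col3a1, against 9.18, 13.4 and 16.6 CPM without (log2 difference 1.27, SE 0.16). C1s, its partner protease, was at 0.391, 3.68 and 41.3 CPM with Col3a1, against 0, 0.0388 and 0.275 CPM without, and did not overlap. The chemokine Cxcl12 was at 2.98, 9.63 and 25.6 CPM with Col3a1, against 1.34, 2.92 and 6.54 CPM without (log2 difference 1.72, SE 0.26). Il11, a cytokine of stromal cells, was low but separated completely, at 0.313, 0.736 and 1.90 CPM with Col3a1, against 0, 0.140 and 0.309 CPM without. The abundant genes Serping1 and Il33 on the same list did not pass.

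The remaining lists were tested as associations with the split. Some members, such as Crabp1, Cox4i2 and Kdr, reached 10 counts only in libraries with Col3a1. These passed the filter through the side on which they are high, so their calls are a description. Aryl hydrocarbon receptor and retinoid genes were called higher for 6 of 14 by edgeR and by DESeq2, and DESeq2 called 2 lower. Of these 14 genes, 4 stayed at or below 1 CPM in every library without Col3a1. The receptor is a ligand-activated transcription factor, and Cyp1b1, a cytochrome P450, is among its targets and is also known to be expressed in fibroblasts. Cyp1b1 was at 55.8, 86.9 and 196 CPM with Col3a1, against 0, 47.1 and 86.3 CPM without (log2 difference 1.15, SE 0.22, adjusted p = 5.57e-04 by edgeR). Ahrr, the repressor of the receptor, was at 2.02, 6.44 and 15.1 CPM with Col3a1, against 0.116, 1.72 and 6.80 CPM without (log2 difference 1.04, SE 0.16, adjusted p = 2.67e-05 by edgeR). Both genes overlapped over all libraries, and in all 11 groups with both kinds of library their mean was higher with Col3a1.

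The gap in Cyp1b1 was wide in some groups and narrow in others. In the G3-1 overload group the mean was 145 CPM in the libraries with Col3a1, against 39.1 CPM in the one without. In the Printex90 non-overload group it was 89.3 CPM in the one with Col3a1, against 6.42 CPM in those without. In the G1-1 control group it was 76.2 CPM with Col3a1, against 64.6 CPM without, and one library without reached 86.3 CPM. All Printex90 overload libraries lacked Col3a1, and their Cyp1b1 mean was 0.0517 CPM, so that group adds nothing to the difference between both kinds of library.

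Other targets of the receptor did not pass. The quinone reductase Nqo1 was at 30.9, 65.5 and 89.5 CPM with Col3a1, against 29.8, 46.7 and 104 CPM without (log2 difference 0.09, SE 0.07, adjusted p = 0.496 by edgeR). Tiparp, which limits the receptor, had a log2 difference of 0.02 (SE 0.04, adjusted p = 0.872 by edgeR). The retinoid genes that were called included Crabp1, Stra6 and Aldh1a2. Stra6, the membrane receptor for retinol binding protein, was at 0.106, 0.800 and 3.88 CPM with Col3a1, against 0, 0.156 and 0.471 CPM without (log2 difference 2.32, SE 0.40, adjusted p = 1.88e-04 by edgeR), and the ranges overlapped.

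The Cyp1b1 promoter is shown because the receptor acts at a short core motif, GCGTG, of the xenobiotic response element. The 100 bases before its start (RefSeq, GRCr8, chr6:21094465-21094564, plus strand) hold the core at 81 and 20 bases before the start, the first on the opposite strand, in capitals.
Cyp1b1: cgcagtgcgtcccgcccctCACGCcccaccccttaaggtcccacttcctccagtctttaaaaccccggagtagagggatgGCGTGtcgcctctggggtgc
GCGTG, read on both strands in the 250 bases before the start, was present in 27.2% of all 27457 promoters, in 44.1% of the 10445 promoters of tested genes and in 36.5% of the 189 promoters of the 281 genes described above.

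**Figure D3:**
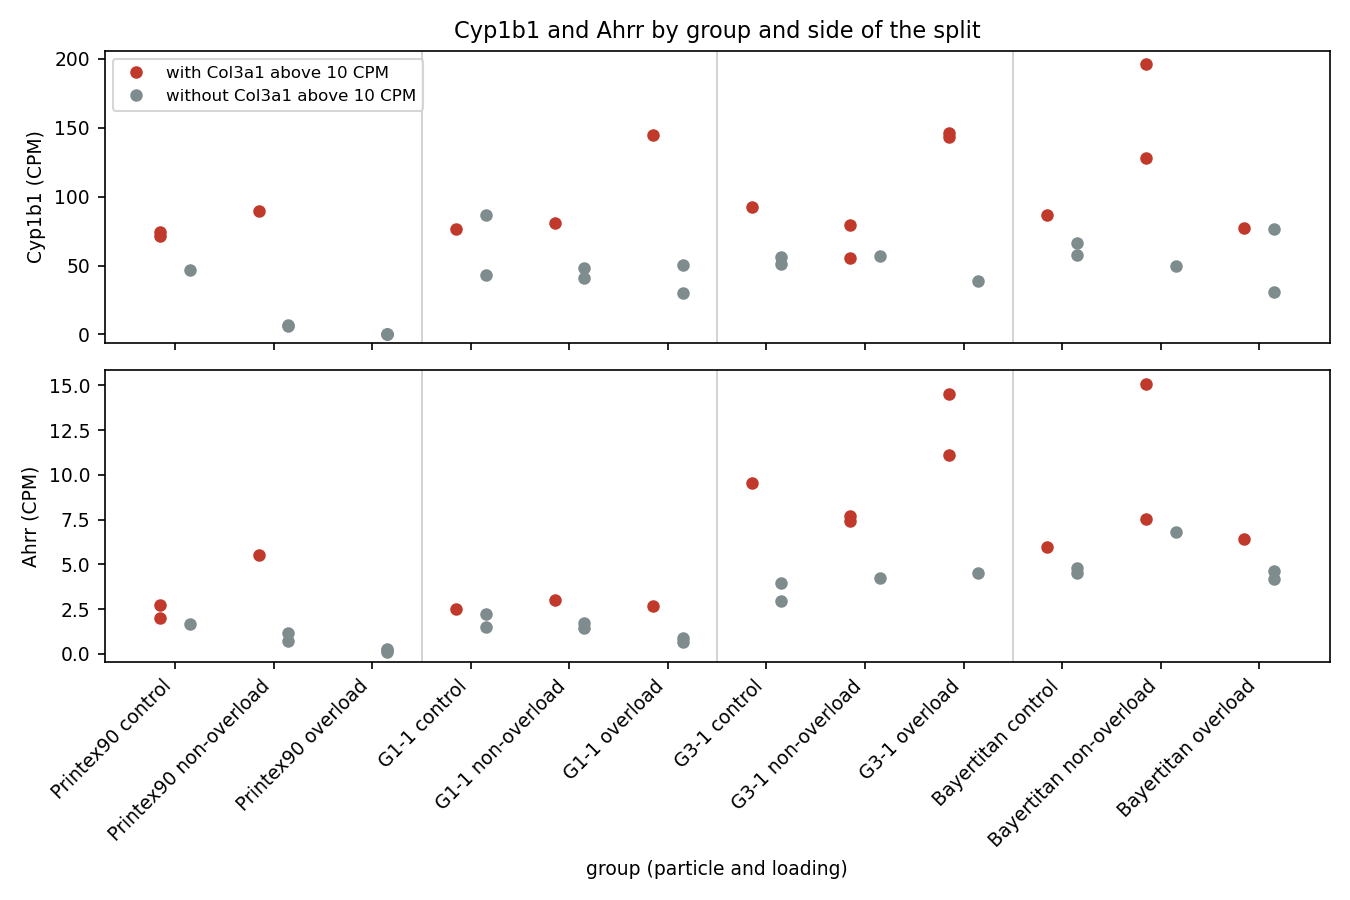
CPM of Cyp1b1 (top) and Ahrr (bottom) in each library of the 12 groups, with Col3a1 above 10 CPM (left, red) or without it (right, grey). In 11 groups the mean is higher with Col3a1, and the Printex90 overload group, without Col3a1, lies near 0.

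Markers of other cells were set beside the signal. Among endothelial genes 2 of 10 were called higher. Eng, a co-receptor for transforming growth factor beta that endothelium, macrophages and fibroblasts share, was at 18.7, 27.7 and 57.8 CPM with Col3a1, against 8.87, 15.2 and 18.6 CPM without (log2 difference 0.79, SE 0.10, adjusted p = 2.65e-06 by edgeR). Kdr, a receptor for vascular endothelial growth factor, stayed below 1 CPM in every library. The endothelial genes Tie1 and Cdh5 did not pass, at adjusted p = 0.602 and 0.420 by edgeR. The summed CPM of 4 endothelial markers was 81.7 to 134 with Col3a1, against 91.1 to 143 without.

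Among pericyte genes 3 of 5 tested were called higher, with medians of 0.584 to 2.17 CPM with Col3a1. Notch3, the most abundant of the 5, was not called (log2 difference -0.23, SE 0.16, adjusted p = 0.412 by edgeR). Ndufa4l2 was not called either (log2 difference 0.25, SE 0.59, adjusted p = 0.850 by edgeR). The summed CPM of 5 pericyte markers was 3.88, 7.47 and 14.3 with Col3a1, against 3.32, 7.33 and 13.6 without. Cspg4, a surface proteoglycan, was at 0.0391, 0.584 and 1.94 CPM with Col3a1, against 0, 0.155 and 0.323 CPM without. Cox4i2, a subunit isoform of cytochrome c oxidase, was at 0, 2.17 and 12.7 CPM with Col3a1. It held 1665 counts over the libraries with Col3a1 and 0 over those without. That is at least 807-fold higher if 3 counts are allowed to those without. The defining pericyte gene Rgs5 was at 0 in all 36 libraries. Mesothelial genes gave no call among 4 tested by edgeR or DESeq2 (1 at an unadjusted p under 0.05), and Msln, their main surface marker, was at 70.2, 147 and 449 CPM with Col3a1, against 79.8, 218 and 344 CPM without. None of 3 lymphocyte, 4 neutrophil, mast cell and eosinophil, 3 dendritic cell and 5 Schwann cell genes that were tested passed by edgeR or DESeq2, and at an unadjusted p under 0.05 there was 1, of the neutrophil list.

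Epithelial genes were present on both sides, and their levels lay lower on balance in the libraries with Col3a1. The summed CPM of 6 epithelial markers was 699.5, 1021 and 1981 with Col3a1, against 743.5, 1350 and 1738 without. None of the 16 epithelial adhesion and keratin genes was called by edgeR, 10 were lower at an unadjusted p under 0.05 and 1 was called lower by DESeq2. Their median log2 difference was -0.25. Krt8, a keratin of simple epithelia, was at 306, 420 and 663 CPM with Col3a1, against 308, 493 and 636 CPM without (log2 difference -0.21, SE 0.08, adjusted p = 0.132 by edgeR). The epithelial level varied widely on both sides, and with its mean as a further term in the model 1764 genes were called higher and 1980 lower. Of the 253 falls 236 were also called in that model, as were 922 of the 939 rises.

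Macrophage genes differed little in size. Of 18 tested identity genes 0 were called higher and 1 lower, and of 19 macrophage cytokines and effectors 0 in either direction by edgeR, with 3 at an unadjusted p under 0.05 and 2 called lower by DESeq2. Cd68, a lysosomal membrane protein, was at 508, 705 and 781 CPM with Col3a1, against 573, 699 and 835 CPM without (log2 difference -0.08, SE 0.04, adjusted p = 0.321 by edgeR). Fabp4, a lipid carrier of alveolar macrophages, was at 650, 1064 and 1254 CPM with Col3a1, against 745, 1033 and 1457 CPM without. Marco, a scavenger receptor that marks these cells in mice, was below 1 CPM in every library. The scavenger receptor Msr1 was the call, at 429, 472 and 527 CPM with Col3a1, against 427, 507 and 561 CPM without (log2 difference -0.13, SE 0.03, adjusted p = 1.47e-03 by edgeR), and its adjusted p was 0.072 without the term for the groups. With the epithelial mean in the model, Cd68 had a log2 difference of -0.14 and Lyz2, lysozyme, one of -0.13, with adjusted p = 8.15e-04 and 0.0116 by edgeR. Of 8 class II genes 1 was called lower. Cd74, the invariant chain of class II molecules, was at 87.6, 164 and 237 CPM with Col3a1, against 62.7, 167 and 287 CPM without (log2 difference -0.15, SE 0.05, adjusted p = 0.0350 by edgeR). It was no longer called with the replicate number as a block (adjusted p = 0.184 by edgeR) or in 13 of 36 fits that leave out a library, and its log2 difference was 0.06 without the term for the groups.

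Few falls were of any size, and none separated the libraries. Of the 253 genes called lower, 18 were at least 1.2-fold lower with Col3a1. Gabrp, a subunit of the receptor for gamma-aminobutyric acid that epithelia express, was at 0.953, 4.87 and 17.5 CPM with Col3a1, against 1.42, 7.78 and 17.4 CPM without (log2 difference -0.75, SE 0.20, adjusted p = 0.0157 by edgeR). It was not called without the term for the groups (adjusted p = 0.261 by edgeR). Padi4, which converts arginine to citrulline in proteins, was at 2.33, 3.62 and 7.16 CPM with Col3a1, against 3.37, 5.70 and 8.59 CPM without (log2 difference -0.56, SE 0.14, adjusted p = 0.00719 by edgeR). Of 11 tested airway and alveolar epithelial genes 1 was called higher and 1 lower. The gene called higher was Rtkn2 (log2 difference 0.53, SE 0.17, adjusted p = 0.0424 by edgeR). It was called in only 15 of 36 fits that leave out a library. Abca3, the surfactant lipid transporter of alveolar type II cells, fell by 0.11 on the log2 scale (SE 0.02, adjusted p = 1.49e-03 by edgeR). Desmosomal Dsc2, an epithelial adhesion gene, fell by 0.27 on the log2 scale (SE 0.08, adjusted p = 0.0293 by edgeR) and was called in 31 of 36 fits that leave out a library. Cell cycle genes gave no call among 20 by edgeR, but 14 were higher at an unadjusted p under 0.05 and 3 were called higher by DESeq2. Over all 14498 tested genes, 3129 were at an unadjusted p under 0.05 by edgeR in either direction. Mki67, a marker of dividing cells, had a log2 difference of 0.16 (SE 0.07, adjusted p = 0.202 by edgeR).

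The largest rises outside the lists, at a mean of at least 5 CPM, added cartilage and vessel-associated matrix genes. Mgp, matrix Gla protein, an inhibitor of calcification, was at 0.647, 4.65 and 278 CPM with Col3a1, against 1 count over all libraries without. Acan, the large cartilage proteoglycan aggrecan, was at 0.0762, 27.2 and 155 CPM with Col3a1, against 0, 0.118 and 0.391 CPM without. Esm1, a secreted endothelial proteoglycan, was at 0.117, 8.01 and 60.2 CPM with Col3a1, against a highest value of 0.194 CPM without. Tnn, tenascin N, was at 0.117, 7.63 and 40.4 CPM with Col3a1, against a highest value of 0.155 CPM without. Igsf10, Fibin, Susd5 and Tspan11 were also among the 10 largest, as was the unnamed entry given above.

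The 15 libraries were then compared with each other. For this, genes at no more than 1 CPM in all 21 libraries without Col3a1 and at 10 CPM or more in at least 1 library with it were taken, 70 in all, Col3a1 included. Together they made up 0.00629 to 0.522% of a library with Col3a1, against 0.000708 to 0.00129% of a library without. Each of the other 69 genes was divided by Col3a1 in the same library, which asks whether the mixture of transcripts was the same from library to library. The standard deviation of the log2 ratio over the 15 libraries ran from 0.59 to 3.21, with a median of 1.05. It was under 1 for 31 genes and over 2 for 7. A ratio compares 1 gene between libraries and says nothing of levels between genes.

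Some transcripts varied less than others in their proportion to Col3a1. Among 1115 genes at no more than 1 CPM in every library without Col3a1 and with at least 1 count in every library with it, the log2 ratio varied least for Sgcd, a sarcoglycan of the cell membrane, with a standard deviation of 0.49. It was 0.352 to 1.01% of the Col3a1 counts. Igfbp6 followed at 0.59 and Pdgfrb at 0.61, with Igfbp6 at 1.29 to 6.42% and Pdgfrb at 14.4 to 57.5% of the Col3a1 counts. Igfbp6 reached 0.794 CPM in libraries without Col3a1. Printex90 control replicates 1 and 2, at 0.457 and 0.469 CPM, and G1-1 control replicate 1, at 0.673 CPM, lay below that. Their Igfbp6 ratios cannot be told apart from this base level. The same limit holds for Sgcd, which reached 0.194 CPM in libraries without Col3a1. It was at 0.0737 CPM in G1-1 non-overload replicate 2 and at 0.19 and 0.0782 CPM in Printex90 control replicates 1 and 2. LOC100911932, Olfml3, Igsf10, Htr2a, Clip3, Col27a1 and Adamts2 completed the 10 least variable of these. Of the 10, Pdgfrb, LOC100911932, Olfml3 and Igsf10 did not overlap between both kinds of library. The others did, so their ratios in the libraries where they were lowest carry the same limit. Col1a1, which was above 1 CPM in some libraries without Col3a1 and so was not among them, had a standard deviation of 0.59. These genes share the libraries and their depth with Col3a1, and the values are a description.

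Other transcripts differed widely between the libraries. Lumican (Lum), a collagen-binding proteoglycan, reached 107 CPM in G1-1 overload replicate 1 and no more than 8.22 CPM in any other library, and it was at 0 counts in all 21 libraries without Col3a1. The same library held the highest Mmp3, the matrix protease stromelysin 1, at 134 CPM. Mgp was highest in Bayertitan non-overload replicate 2 at 278 CPM and in G1-1 overload replicate 1 at 246 CPM, while the library ranking next had 57.2 CPM. Acan was highest in G3-1 control replicate 3 at 155 CPM and in Bayertitan overload replicate 1 at 143 CPM, and it was above 10 CPM in 12 of the 15 libraries. Elastin (Eln) reached 35.0 CPM in Bayertitan non-overload replicate 2 and at most 2.38 CPM elsewhere. Crabp1, a carrier of retinoic acid, reached 33.3 CPM in G3-1 overload replicate 2, and periostin (Postn), a matrix protein of wounded tissue, 10.9 CPM in G3-1 non-overload replicate 3. Of the 69 genes, 36 were highest in Bayertitan non-overload replicate 2, the library with the most Col3a1, 14 in G3-1 overload replicate 2 and 10 in G3-1 overload replicate 3.

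**Figure D4:**
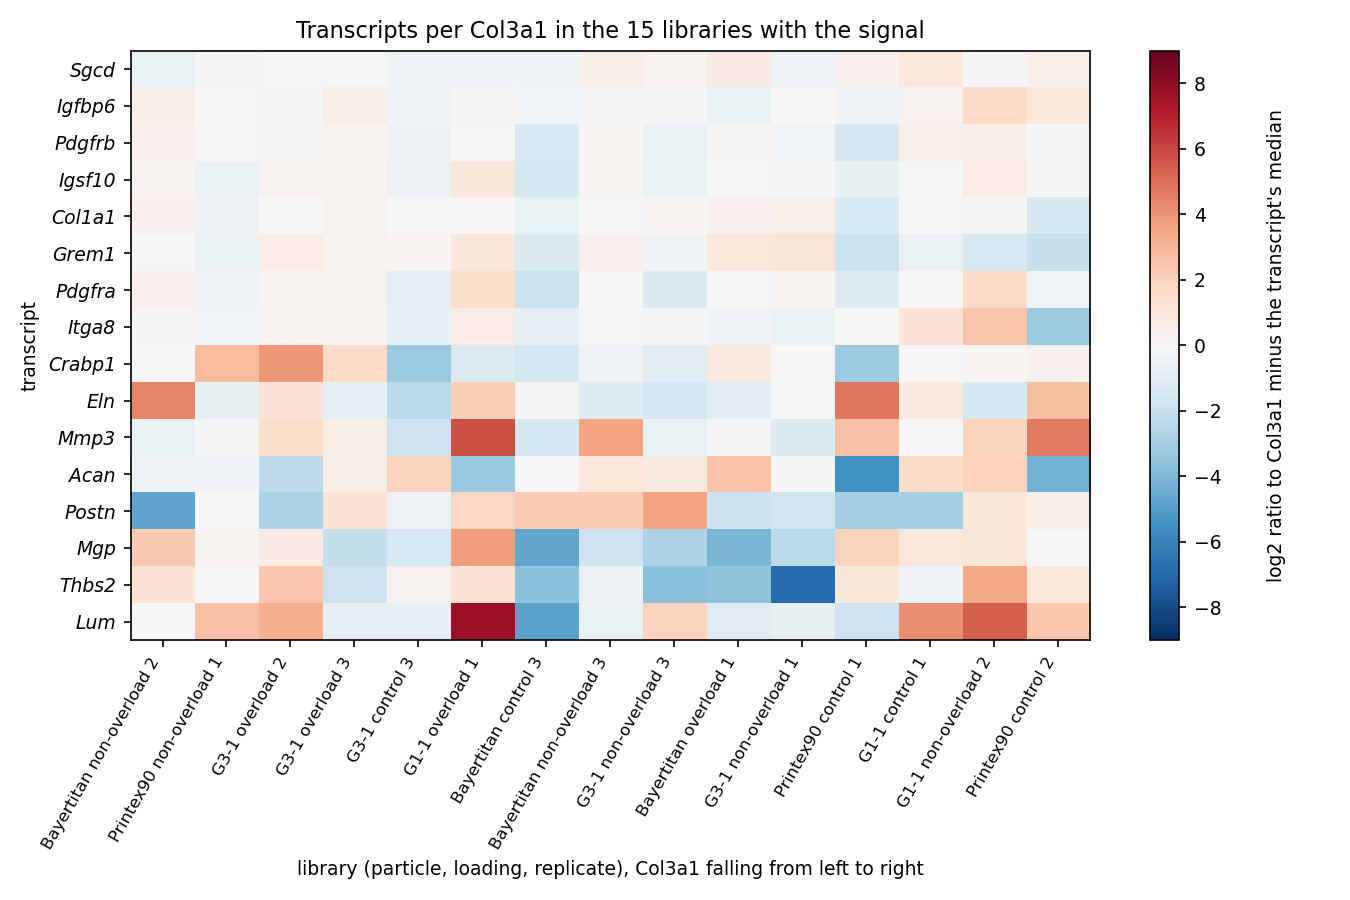
Log2 ratio to Col3a1 (0.5 counts added to both) minus the median of the transcript, for 16 transcripts (rows) in the 15 libraries with Col3a1 (columns, falling Col3a1 from left to right). Sgcd, Igfbp6, Col1a1 and Pdgfrb vary least of the 16, and Lum, Thbs2, Mgp, Postn, Acan, Mmp3 and Eln differ by many doublings between libraries.

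Whether the mixture differed with loading was asked of those libraries with Col3a1 that were overload (4) or control (5). Of 12 matrix and receptor genes set down for this, 3 could be tested, the others being above 1 CPM in some library without Col3a1, at 0 in some library with it, or not analysed here. The log2 ratio of Pdgfra to Col3a1 was -2.51 ± 0.71 in overload libraries and -3.87 ± 0.75 in control libraries (SD, n = 4 and 5), a difference of 1.36. This gave p = 0.0159 in a two-sided exact permutation test, the smallest the design allows, and 0.0476 adjusted over the 3 genes. Pdgfrb differed by 0.75 (exact permutation p = 0.143) and Eln by -0.74 (exact permutation p = 0.675). The divisor, Col3a1, is also the value by which these libraries were chosen. The 3 genes were admitted by their low level on the other side of that split. With Col1a1 in place of Col3a1 the Pdgfra difference was 0.46 (exact permutation p = 0.5), so it was not called with another collagen as the divisor. With 0.5 counts added to Col3a1 and each gene, Postn could be tested as well, and over these 4 genes Pdgfra was no longer called (exact permutation test, adjusted p = 0.0635), with a difference of 1.35 and p = 0.0159 as before. Leaving out a library gave differences of 1.01 to 1.57 and no call in 8 of 9 cases, in 7 of which Pdgfra was at the smallest exact permutation p these sizes allow (0.0286 or 0.0357), which cannot pass for a single gene out of 3. Control libraries also had the lower Col3a1, with 3 of 5 at 30.1 CPM or less, against 173.1 CPM or more in all 4 overload libraries, and the part of that level in the ratio was not tested. The permutation took no account of particle. Of the 5 control libraries 2 were of Printex90, against 0 of the 4 overload libraries. Loading and particle are thus partly mixed here, and the part of particle was not tested.

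Comparisons of the particles with their controls hold both kinds of library, so they were fitted with and without a term for the split. The 2 comparisons of a particle share its control libraries. Bayertitan overload against control gave 1938 calls with the term (13.4%), against 1426 without it (9.84%), and all 1426 were among the 1938. G1-1 overload against control gave 876 calls with the term (6.04%), against 727 without it (5.01%), with 725 shared. For Printex90 overload, whose libraries all lacked Col3a1 while 2 of 3 controls had it, the calls numbered 1041 with the term (7.18%), against 1158 without it (7.99%), and 820 were shared. Printex90 non-overload gave 99 calls with the term (0.683%), against 0 without it, and at an unadjusted p under 0.05 it gave 1202 and 628 genes by edgeR. G1-1 non-overload gave 9 calls (0.0621%) either way. G3-1 overload gave 15 with the term (0.103%), against 17 without it (0.117%), and Bayertitan non-overload gave 4 with it (0.0276%), against 0 without it, and at an unadjusted p under 0.05 it gave 2500 and 2352 genes by edgeR. G3-1 non-overload gave 0 calls in both fits by edgeR, with 944 genes at an unadjusted p under 0.05 with the term and 782 without it.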

How the data were processed

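RNA was sequenced from 36 samples of cultured rat alveolar macrophages. Per the labels' protocols, ribosomal RNA was removed and 150 ng of RNA went into each library. Per the submitters' processing notes, Salmon, FastQC, MultiQC and the build Rnor_6.0 were used; versions, annotation and the step to genes are not given in the sources used here. The authors deposited estimated counts per gene, not scaled for depth, of which 47.7% are not whole numbers. Estimated counts divide reads of near-identical and overlapping genes by a model, so those genes are uncertain.

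Counts were rounded. Each of the 36 columns was assigned by its name to one sample title. CPM values use column totals. For the test, filterByExpr by group left 14498 of 23487 genes, scaled by TMM. A model with 12 group means and a term for Col3a1 above 10 CPM (23 residual degrees of freedom) was fitted with edgeR 4.0.16 (limma 3.58.1, R 4.3.3; DESeq2 1.42.0 as an alternative), with Benjamini-Hochberg adjustment over all tested genes and a threshold of 0.05. Standard errors come from the fitted difference and its F statistic. Ratios to Col3a1 were tested by exact permutation over libraries. Counts of the 2 kinds of library that are near 0 are compared as pooled ratios with exact 95% intervals, or against a floor of 3 counts. The model was tested on simulated data.

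The libraries, the gene lists and the rule for named genes were chosen with earlier results of these data known. The rule took the markers, up to 4 called and 2 uncalled members of each list by mean CPM, the 10 largest rises and falls outside the lists at a mean of at least 5 CPM, and the 10 genes with the steadiest ratio to Col3a1; some further members and the genes highest in single libraries were named after their values were seen. A few genes that the rule takes are not reported here. Of 411 entries 401 were in the table, 9 of them under a synonym or other spelling. Promoters are RefSeq sequences of GRCr8, matched by symbol, for 10445 of the 14498 tested genes. No coordinates of Rnor_6.0 are given. Alternatives covered the tool, scaling, filter, limit and form of the split, covariates, the replicate block, single particles and each library left out.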

Additional observations from a re-analysis of the deposited data

Results flagged for a closer look

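Within the libraries with Col3a1, the log2 ratio of 24 genes to Col3a1 was searched for a library standing apart from the others of the same loading, in 72 sets of 4 to 6 libraries. Of these, 5 were marked. Chance marks about 1 in 20 for genes chosen beforehand. Genes among the 24 were chosen by the steadiness of these same ratios or after their values were seen. That rate therefore cannot be applied to them. Itga8, an integrin chain of lung mesenchyme, was at 119% of the Col3a1 counts in G1-1 non-overload replicate 2, and the nearest other non-overload library was at 22.3%. Eln was at 5.37% in Bayertitan non-overload replicate 2, and the nearest other non-overload library was at 0.240%. Crabp1 was at 3.91% in Printex90 non-overload replicate 1, and the nearest other was at 0.566%. Thbs2, the matrix protein thrombospondin 2, was at 0.116% in Bayertitan control replicate 3, and the nearest other control library was at 1.26%. Htr2a, a serotonin receptor, was at 2.10% in Printex90 control replicate 2, from a level of 0.274 CPM, and the nearest other control library was at 0.789%.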

How the results depend on the processing

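The counts of 939 genes higher and 253 lower stayed within 1.5 times of these values with DESeq2 (1058 and 371, 8 genes without an adjusted p), median-of-ratios scaling, no filter on low counts and a limit of 100 CPM. A split by Col1a1 picks the same libraries and so is the same fit. With Col3a1 as a continuous term 483 genes were lower, without the term for the groups 151, and with the epithelial mean added 1764 were higher and 1980 lower. Within single particles, with 9 libraries each, the counts were 157 higher and 0 lower for Bayertitan, 127 and 1 for G1-1, 291 and 53 for G3-1, and 49 and 0 for Printex90, where fewer libraries entered. Leaving out a library gave 718 to 1131 genes higher and 120 to 439 lower. The count of genes whose ratio to Col3a1 differed with overload was 1 of 3, 0 of 4 with 0.5 counts added, where the fourth gene raised the adjusted p, 0 with Col1a1 as the denominator (chosen after seeing the data, since a Col1a2 denominator was not run) and 0 to 2 when a library was left out, where a single gene of 3 could not pass. The cause of the other changes was not tested.

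The labels do not say whether replicate numbers pair the libraries. The deviations of same-numbered libraries correlated between -0.666 and 0.429 within particles, positively in every pair for G3-1 number 3 (0.23 to 0.429), G1-1 number 3 (0.089 to 0.246) and Printex90 number 1 (0.055 to 0.271) and with both signs for the other numbers, so the numbers were not taken as pairing. With the replicate block 757 genes were higher and 271 lower, of which 716 and 137 were also called without it. Cd74 turned to 0.0597 on the log2 scale without the term for the groups. In Printex90 libraries alone, Dsc2 turned to 0.016, Pcsk1 to 0.0048 and Cd101 to 0.075. Over 49 genes and the settings other than a left-out library, 515 values kept their direction and call, 108 kept the direction without the call, 10 gained a call and 4 turned. Depth limits the genes near 0 in the libraries without Col3a1, where the size of a difference is bounded by counting error.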
